A study of Mus musculus with 15 samples.

Results

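A module of 50 genes for ribosome biogenesis and the nucleolus was followed in 8 RNA-seq libraries of mouse zygotes and 2-cell embryos, out of 14392 genes that the expression table lists. Its genes are defined by their names: every symbol that starts with Nop, Nol, Utp, Rrp or Noc followed by a digit, every symbol that starts with Gnl, and 13 full symbols, namely Imp3, Imp4, Ncl, Npm1, Fbl, Dkc1, Bop1, Pes1, Wdr12, Rrn3, Ubtf, Nhp2 and Gar1. The 50 genes were taken from the table after its low-value filter, so all of them had passed it by definition. Genes whose names fit the rule but that the table does not list are not covered. Of the 50, 41 were above the floor of the table in all 8 libraries.

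The study removed Usp16, which encodes a deubiquitinase of histone H2A, from the oocyte, and asked how embryos develop without the maternal enzyme. The libraries fell into 4 groups of 2, zygotes and 2-cell embryos of the WT and of the cKO genotype, and each was made from a pool of 10 embryos. WT embryos had WT mothers. The cKO embryos came from Usp16 fl/fl;Gdf9-Cre mothers mated with WT males, and their label reads Usp16 maternal -/ paternal +. Gdf9-Cre acts in oocytes from the primordial follicle onwards, so that the mother's copy is deleted before fertilization while the father's copy stays intact. Per the study's methods all mice were on a C57BL/6 background, and embryos of both genotypes were collected from juvenile females superovulated with gonadotropins. The labels do not say that the 2 libraries of a group came from separate collections of animals, so that every p-value measures the spread between these libraries only.

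Ribosomes are assembled in the nucleolus. RNA polymerase I, placed on the ribosomal DNA by Ubtf and Rrn3, makes a long precursor RNA, small nucleolar RNPs modify it, and separate sets of factors then cut and fold the small and the large subunit. The oocyte stops this synthesis when it is fully grown, the zygote carries compact nucleolus precursor bodies, and the mouse embryo resumes ribosomal RNA synthesis after its first cleavage, around the time when its genome is activated.

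Values are FPKM, which is scaled by transcript length, so that levels of different genes can be set side by side. All values under 1 had been set to 1 in the table, and a gene at 1 is said to be at the floor. Usp16 itself was at 184 and 188 FPKM in WT zygotes and at 16.8 and 21.99 FPKM in cKO zygotes (log2 fold change -3.21, SE 0.16, adjusted p = 0.00342 with limma). In 2-cell embryos it was at 168 and 183 FPKM in WT and at 168 and 84.8 FPKM in cKO, whose paternal copy is intact. The sum of all FPKM was between 547752 and 593317 in 7 libraries and 770989 in the second cKO 2-cell library. The 2 cKO 2-cell libraries differed by more than 3-fold in 1912 genes, against 20 to 199 genes for the other 3 groups, and this pair has the lowest weight in the test. Of 8 maternal oocyte transcripts, including Gdf9, Zp3 and Zar1, all 8 were listed above the floor in every library. Of 8 transcripts that mark the 2-cell stage, 6 were listed, and their summed level was 7.45 to 11.2 FPKM in zygotes and 166 to 676 FPKM in 2-cell embryos, as the stage labels have it. Of 12 cumulus and granulosa cell markers, which would show cells left on the embryo, 3 were listed, and at the floor they would sum to 3 FPKM. Their sum was 24.3 to 28.7 FPKM in zygotes and 3 to 10.3 FPKM in 2-cell embryos. Cyp19a1 carried the sum in zygotes, at 22.3 to 26.7 FPKM, and was at 1 to 1.78 FPKM in 2-cell embryos, while the defining markers Foxl2 and Tnfaip6 were at the floor in all 4 zygote libraries.

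Module genes by role comprised 2 factors of RNA polymerase I (Rrn3 and Ubtf), 3 proteins of C/D box and 4 of H/ACA box small nucleolar RNPs, 20 factors of the small subunit, 16 factors of the large subunit, the abundant nucleolar proteins Ncl and Npm1, and 3 genes that the naming rule took in (Nol4, Nol7 and Gnl1). The roles were assigned from general knowledge of each protein. The libraries carry no strand, and exons of 17 of the 50 genes overlap those of another annotated gene, so that reads there cannot be told apart. These genes are Bop1, Dkc1, Gnl1, Gnl2, Gnl3, Nhp2, Nol11, Nol7, Nop14, Nop56, Pes1, Rrp7a, Rrp8, Rrp9, Utp14a, Utp14b and Wdr12.

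**Figure D1:**
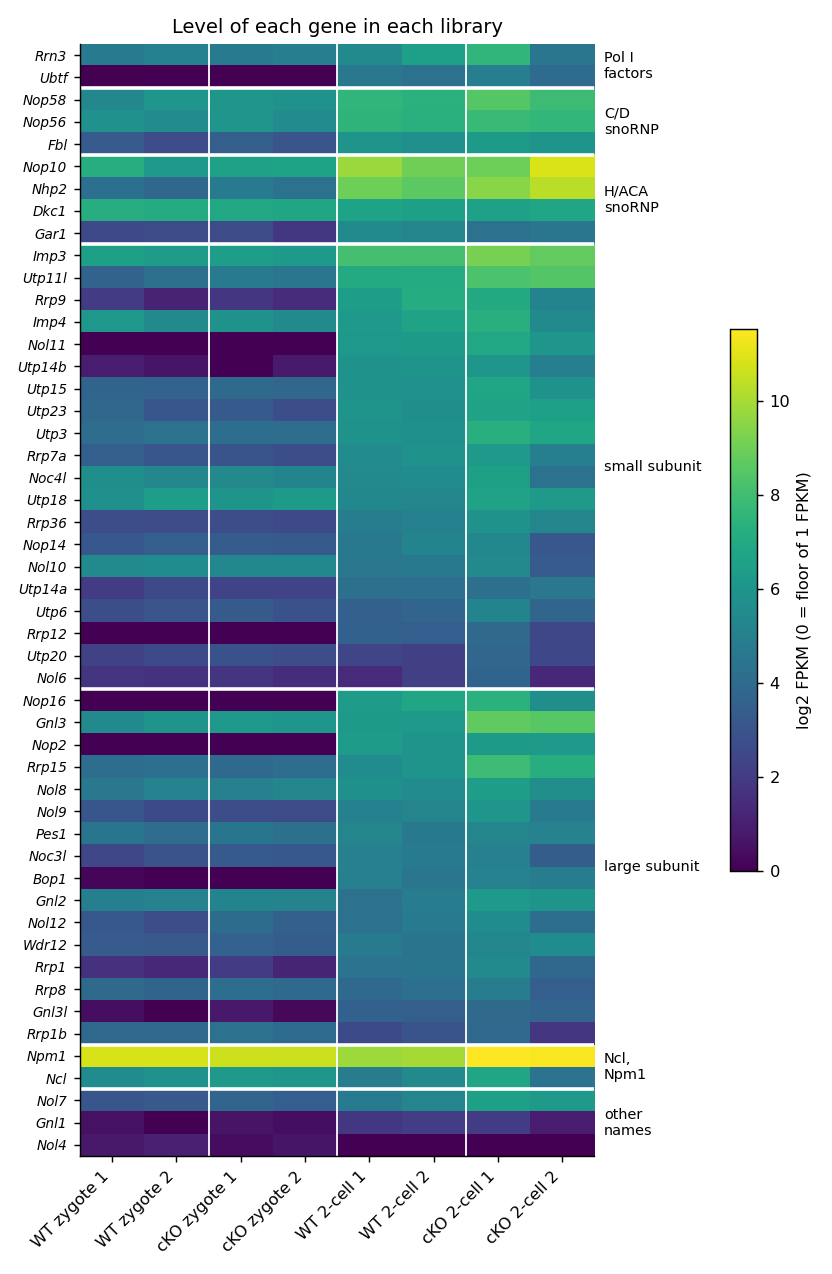
Level of each of the 50 genes (rows, grouped by role) in each of the 8 libraries (columns), as log2 FPKM, where 0 is the floor of 1 FPKM. The 5 rows at 0 in all 4 zygote columns and above 0 in all 4 of the 2-cell columns are Ubtf, Nol11, Rrp12, Nop16 and Nop2, and Npm1 is the brightest row in zygotes.

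The promoters of 6 genes are shown, chosen after their levels were seen, and no link between promoter and level was tested. Gnl3, Rrp15 and Utp3 had higher levels in both cKO 2-cell libraries than in both WT ones, and Nop2, Nol11 and Nop16 were at the floor in every zygote library and were present in every 2-cell library. Each window runs from 250 bases before to 50 bases after the transcription start of the RefSeq model on build GRCm38.p6, written 5′ to 3′ on the strand of the gene. The windows are chr14:31019082-31019381 (minus strand) for Gnl3, chr1:186749309-186749608 (minus) for Rrp15, chr5:88554212-88554511 (plus) for Utp3, chr6:125131633-125131932 (plus) for Nop2, chr11:107189332-107189631 (minus) for Nol11 and chr13:54590025-54590324 (minus) for Nop16. Capitals mark matches, on either strand, to the 8 short motifs that were searched.
Gnl3: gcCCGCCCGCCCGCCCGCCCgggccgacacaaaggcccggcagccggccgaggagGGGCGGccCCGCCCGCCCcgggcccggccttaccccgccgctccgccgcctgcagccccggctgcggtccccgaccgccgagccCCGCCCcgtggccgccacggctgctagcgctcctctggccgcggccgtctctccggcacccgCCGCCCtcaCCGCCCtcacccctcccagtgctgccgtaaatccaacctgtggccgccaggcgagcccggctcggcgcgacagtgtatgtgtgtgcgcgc
Rrp15: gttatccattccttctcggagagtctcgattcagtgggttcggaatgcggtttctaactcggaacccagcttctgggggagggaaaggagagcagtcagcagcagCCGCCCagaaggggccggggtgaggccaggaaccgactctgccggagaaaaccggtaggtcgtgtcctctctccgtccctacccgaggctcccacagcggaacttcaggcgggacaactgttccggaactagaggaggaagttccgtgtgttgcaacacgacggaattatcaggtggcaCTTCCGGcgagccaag
Utp3: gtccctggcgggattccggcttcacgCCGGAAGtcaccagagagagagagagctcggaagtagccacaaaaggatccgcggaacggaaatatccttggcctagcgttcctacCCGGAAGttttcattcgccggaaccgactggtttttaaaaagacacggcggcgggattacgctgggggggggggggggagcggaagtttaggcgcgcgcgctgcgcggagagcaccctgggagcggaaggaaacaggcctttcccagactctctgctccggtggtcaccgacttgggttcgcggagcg
Nop2: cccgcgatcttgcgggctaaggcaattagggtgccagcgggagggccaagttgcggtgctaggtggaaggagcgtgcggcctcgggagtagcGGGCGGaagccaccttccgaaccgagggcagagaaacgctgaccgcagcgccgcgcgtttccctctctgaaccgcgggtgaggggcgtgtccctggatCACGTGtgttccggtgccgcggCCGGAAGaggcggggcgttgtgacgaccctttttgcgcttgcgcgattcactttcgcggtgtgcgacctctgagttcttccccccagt
Nol11: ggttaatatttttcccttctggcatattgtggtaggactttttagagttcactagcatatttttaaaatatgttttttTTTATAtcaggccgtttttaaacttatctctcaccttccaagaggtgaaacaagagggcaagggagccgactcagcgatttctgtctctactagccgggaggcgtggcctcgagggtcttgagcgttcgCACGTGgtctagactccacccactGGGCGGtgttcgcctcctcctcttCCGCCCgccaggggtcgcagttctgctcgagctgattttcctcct
Nop16: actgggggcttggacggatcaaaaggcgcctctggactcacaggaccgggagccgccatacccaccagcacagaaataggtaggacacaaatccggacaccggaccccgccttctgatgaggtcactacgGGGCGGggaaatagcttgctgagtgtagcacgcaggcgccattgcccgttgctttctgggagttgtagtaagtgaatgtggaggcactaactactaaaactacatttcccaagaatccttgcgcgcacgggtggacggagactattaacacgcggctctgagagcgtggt

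A window was found for 39 of the 50 genes, and some genes have more than 1. The ETS motif CCGGAAG was present for 30.8% of the 39 genes and for 17.9% of 10168 listed genes with a window, among them Rrp15, Utp3 and Nop2. The E-box CACGTG, the site of Myc and related factors, was present for 23.1% and 11.2%, among them Nop2 and Nol11. The SP1 motif GGGCGG was present for 74.4% and 63% of genes, and the motif TCTCGCG for 12.8% and 5.65%. The shares were 38.5% and 43.6% for the NF-Y motif CCAAT, 12.8% and 10.3% for TATAAA, 5.13% and 6.8% for the NRF1 motif GCATGCG, and 2.56% and 8.11% for the YY1 motif AAGATGG. Median GC content was 59.5% for the windows of the module and 59.7% for those of listed genes. Matches can overlap one another, as the SP1 matches of Gnl3 do. Of the 6 genes shown, the Gnl3 window was the richest in G and C, at 80.3%, and Nol11 had the lowest share, at 49.3%.

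From zygote to 2-cell embryo, most genes of the module rose in WT. The test was limma on log2(FPKM + 1), adjusted over all 14392 genes with a threshold of 0.05, and it called 32 of the 50 genes higher and 3 lower, where 36.6% of all genes were called higher and 14.9% lower. Before adjustment, p was under 0.05 for 32 genes that were higher and for 5 that were lower, where 39.8% and 17.3% of all genes were. The mean was more than 3-fold higher for 31 genes, where the share among all genes was 26%, and more than 3-fold lower for 0 genes, where it was 8.78%. Both 2-cell libraries were above both zygote libraries for 38 genes and below them for 8, where the shares were 49.4% and 26.4%. The median log2 ratio was 1.71 over the module and 0.41 over all listed genes. The 5 genes at the floor in all 4 zygote libraries (Nol11, Nop16, Nop2, Rrp12 and Ubtf) are listed only through their 2-cell values. They could not have come out lower in either genotype, and they are part of these counts. Nol4 was at the floor in all 4 of the 2-cell libraries and is listed only through its zygote values. It could not have come out higher in either genotype, and it is part of the counts too. In libraries of pooled whole embryos, fewer cells with a transcript and less of it per cell cannot be told apart. When libraries were scaled by the median ratio of expressed genes, the median log2 ratio of genes above the floor moved from 0.15 to -0.17, and that of the module from 1.71 to 1.35. The cumulus marker Cyp19a1 had lower levels at the 2-cell stage. The other listed markers went the other way in WT, from the floor to 1.83 and 7.45 FPKM for Tnfaip6 and to 1.55 and 1.06 FPKM for Foxl2. Tnfaip6 and Foxl2 are listed only through their 2-cell values and could not have come out lower, so their direction cannot be set against that of Cyp19a1. The part of these markers in the change between stages was not tested.

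In cKO embryos the same step gave 28 genes called higher and 0 lower with limma, where 20.7% and 18.2% of all genes were called. The count at an unadjusted p under 0.05 was 32 higher and 0 lower (24.6% and 22.6% of all genes). Without sample weights limma called 1 lower, and the share of all genes in that fit was not counted. The mean was more than 3-fold higher for 31 genes (22.8% of all genes) and more than 3-fold lower for 0 (19.2%). Both libraries were above for 37 genes (32.3%) and below for 3 (35.5%), which were Dkc1, Nol4 and Rrp1b. The median log2 ratio was 2.16 over the module and 0.00 over all listed genes. Called higher in both genotypes were 27 genes. Called only in WT were Gar1, Gnl1, Noc3l, Nol12 and Nop14, and called only in cKO was Gnl3, although a call in 1 genotype does not show that the genotypes differ. The shares of all genes called in both or in only 1 genotype were not counted. Of all genes, 36.6% were called higher in WT and 20.7% in cKO. Without 1 library at a time, the number called higher in cKO ranged from 15, without the first cKO 2-cell library, to 28.

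**Figure D2:**
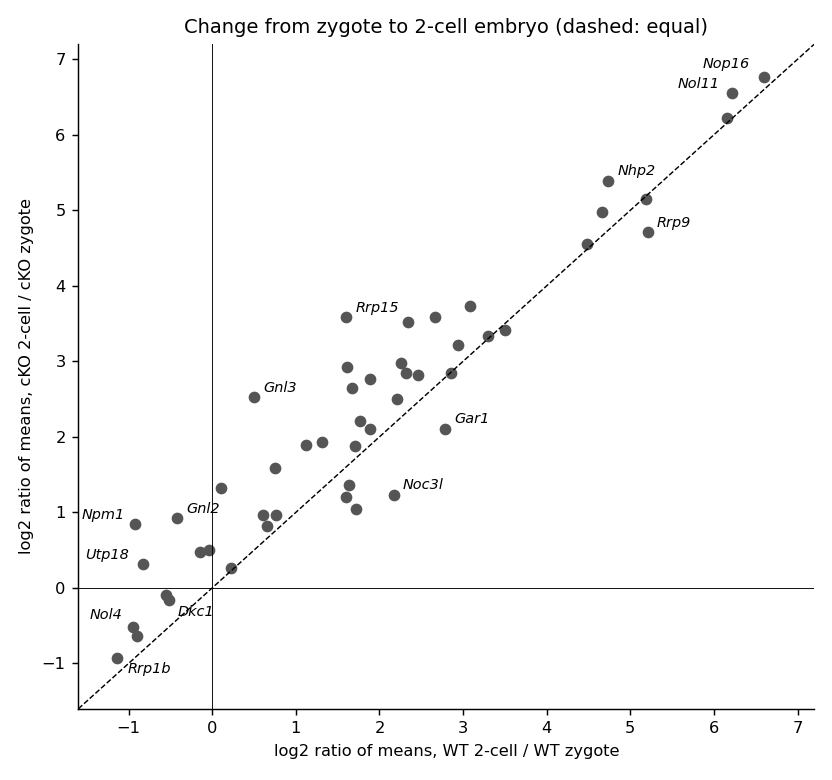
Log2 ratio of mean FPKM between 2-cell embryo and zygote for each of the 50 genes, in WT (horizontal) and in cKO (vertical), with n = 2 libraries per mean and with the dashed line where both are equal. Most genes lie to the right of 0 and above 0. Npm1, Gnl2 and Utp18 are among the points left of 0 and above 0, and Rrp15 and Gnl3 lie farthest above the line.

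Between cKO and WT zygotes, no gene of the module passed the test. limma called 0 higher and 0 lower, where 0.167% and 0.0278% of all genes were called. At an unadjusted p under 0.05 there were 5 higher and 2 lower genes, where 7.34% and 3.53% of all genes were, and limma without sample weights also called 0 and 0. No mean differed by more than 3-fold in either direction, where 0.104% and 0.0486% of all genes did, and the ratios of cKO to WT ranged from 0.731 for Utp23 to 1.81 for Nol12. Both cKO libraries were above both WT libraries for 12 genes (15.8% of all genes) and below them for 6 (10.2%), and the median log2 ratio was 0.00. Nol12, whose yeast relative trims large subunit precursors, was at 9.16 and 6.57 FPKM in WT zygotes and at 16.8 and 11.8 FPKM in cKO zygotes (adjusted p = 0.311). Dkc1 was at 144 and 138 FPKM in WT and at 118 and 112 FPKM in cKO zygotes (adjusted p = 0.319). With 2 libraries against 2, an exact permutation test of 1 gene cannot go below p = 0.333.

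Between cKO and WT 2-cell embryos, the means of the module were mostly higher in cKO, while most genes of the table were lower. The cKO mean was higher for 41 genes and lower for 8, and for all listed genes it was higher for 30.8% and lower for 65.2%. Both cKO libraries were above both WT libraries for 19 genes, where the share among all genes was 14%, and below them for 1 gene, Gar1, where it was 43.4%. The 19 genes were Gnl2, Gnl3, Gnl3l, Imp3, Nhp2, Nol7, Nop56, Nop58, Npm1, Rrp15, Rrp36, Utp11l, Utp14a, Utp18, Utp20, Utp23, Utp3, Utp6 and Wdr12. limma called 1 gene higher, Gnl3, and 0 lower, where 0.834% and 5.93% of all genes were called. At an unadjusted p under 0.05 there were 6 higher and 0 lower genes, where 4.79% and 20.6% of all genes were. Without sample weights limma called 10 higher, among them Gnl2, Npm1, Rrp15 and Utp3, and 1 lower, Gar1. The share of all genes called in that fit was not counted, so these 10 cannot be set against it. The mean was more than 3-fold higher for 2 genes, Gnl3 and Rrp15 (2.84% of all genes), and more than 3-fold lower for 0 (13.5%).

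These counts changed with the scaling and with the cKO library used. On the log2 scale, the median ratio between genotypes was 0.42 over the module and -0.31 over genes above the floor. It was 0.83 and 0.15 with median-ratio scaling, and 0.26 and -0.49 with each library scaled to the same sum, so that the module stayed above the other genes in each case. Genes with both cKO libraries above numbered 31 with median-ratio scaling, where 21.8% of all genes did so, and 12 with sum scaling, where 9.57% did. Without the first cKO 2-cell library, the remaining one had a higher level than the WT mean for 26 genes and a lower one for 23, where 26.4% of all genes were higher and 68.6% lower. Without the second, 46 genes were higher and 3 lower, where 30.2% and 64.5% of all genes were.

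**Figure D3:**
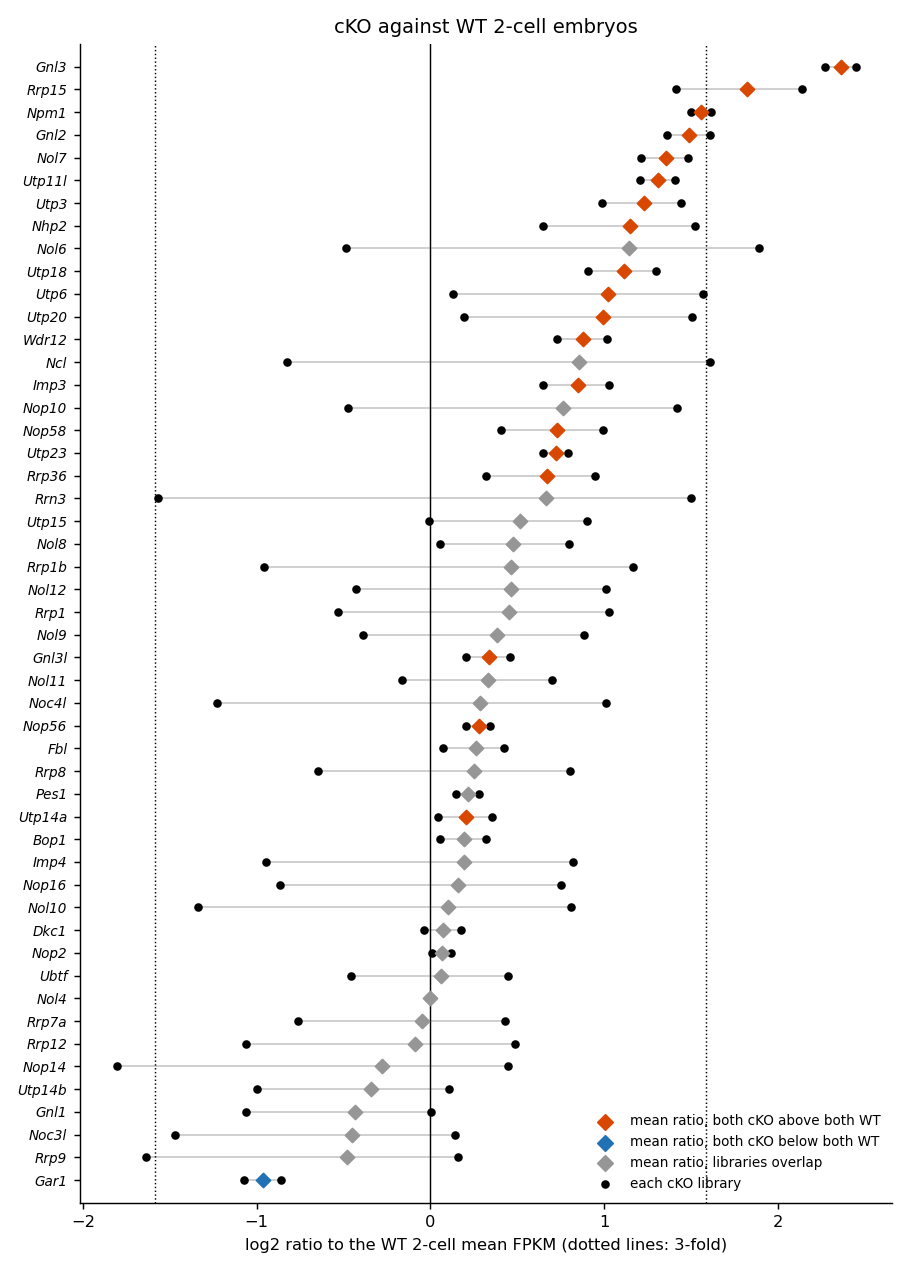
Log2 ratio of cKO to the WT mean in 2-cell embryos for each of the 50 genes, sorted. Black points are the 2 cKO libraries, diamonds are the ratio of means (orange where both cKO libraries are above both WT libraries, blue where below, grey where they overlap), and dotted lines mark 3-fold. Gnl3 and Rrp15 lie beyond 3-fold, Gar1 is the only gene in blue, and the long grey bars belong to genes such as Rrn3 and Nol6 whose cKO libraries fall on both sides of 0.

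**Figure D4:**
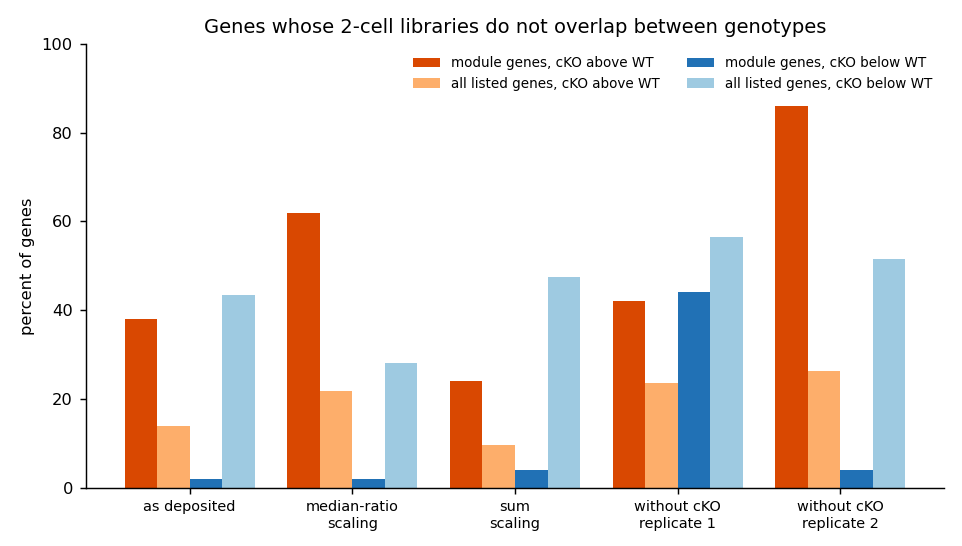
Percent of the 50 module genes and of all 14392 listed genes whose cKO 2-cell libraries lie all above (orange) or all below (blue) the WT 2-cell libraries, as deposited, with 2 other scalings, and with 1 of the 2 cKO libraries left out. The module has a higher share above and a lower share below than all genes in each of the 5 settings, and without the first cKO library 22 module genes are below, against 1 as deposited.

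Within cKO 2-cell embryos, 42 of the 50 genes were lower in the second library than in the first and 7 were higher. They differed by more than 3-fold for 12 genes (Imp4, Ncl, Noc3l, Noc4l, Nol10, Nol6, Nop10, Nop14, Nop16, Rrn3, Rrp1b and Rrp9), against 0 genes in each other group. The median fold between replicates was 1.82 for these embryos and 1.15 to 1.21 for the other groups. Across the 50 genes, transcript length and the log2 ratio of the second to the first library had a Spearman correlation of -0.439, and across 6864 genes above the floor it was -0.281. In WT zygotes, cKO zygotes and WT 2-cell embryos the correlation over the 50 genes was 0.358, 0.281 and 0.0462. The genes of a library share its depth and are not independent. The 7 that were higher in the second library were Dkc1, Gar1, Nhp2, Nop10, Utp11l, Utp14a and Wdr12, with median transcript lengths from 685 to 2850 bases. The part of transcript length in the comparison of genotypes was not tested.

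Maternal transcripts and markers of the 2-cell stage also differed in these libraries. The summed level of the 8 maternal oocyte transcripts was 8009 and 6268 FPKM in WT and 1279 and 3039 FPKM in cKO, with 6 of 8 below in both cKO libraries and 2 of 8 called lower by limma. Among all genes, 43.4% were below and 5.93% were called lower. Zp3 and Gdf9 went the other way, with cKO means 1.42 and 1.27 times those of WT. For the 6 listed 2-cell markers the sum was 459 and 676 FPKM in WT and 166 and 175 FPKM in cKO, with 6 of 6 below and 2 called lower, to be read against the same shares. The number of genes at the floor was 1642 and 1716 in WT and 3684 and 4240 in cKO. The module held 0.825% and 0.82% of the sum of all FPKM in WT and 1.54% and 1.18% in cKO, and 0.462% to 0.528% in zygotes. The part of these transcripts in the levels of the module was not tested.

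Of the 2 factors of RNA polymerase I, Ubtf, which binds ribosomal DNA and keeps it open, was at the floor in all 4 zygote libraries. It was at 24.4 and 20.4 FPKM in WT 2-cell embryos and at 30.5 and 16.3 FPKM in cKO 2-cell embryos. The WT mean was at least 22.4-fold and the cKO mean at least 23.4-fold above the zygotes, past the limma threshold in both genotypes (adjusted p = 8.69e-05 and 0.000914). Per the study's methods, genes under 1 FPKM in every library were left out. Ubtf is therefore listed only through its 2-cell values and could not have come out lower, so its rise is no independent result. Rrn3, which joins the polymerase to its promoter, was at 27.9 and 33.9 FPKM in WT zygotes, 26.8 and 30.6 in cKO zygotes, 44.8 and 90.0 in WT 2-cell embryos, and 191 and 22.7 in cKO 2-cell embryos. Its cKO 2-cell libraries lay on both sides of the WT ones and were 8.39-fold apart, the widest gap between replicates in the module, and Rrn3 passed no test.

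All 3 C/D box proteins rose in both genotypes, where 36.6% of all genes were called higher in WT and 20.7% in cKO. Fbl, the methyltransferase that puts methyl groups on ribosomal RNA, was at 9.85 and 6.34 FPKM in WT zygotes, 11.4 and 8.15 in cKO zygotes, 62.5 and 54.6 in WT 2-cell embryos, and 78.6 and 61.6 in cKO 2-cell embryos. The scaffold proteins Nop56 and Nop58 rose 3.25-fold and 3.41-fold in WT and 3.68-fold and 4.64-fold in cKO. In 2-cell embryos Nop58 was at 192 and 166 FPKM in WT and at 357 and 238 FPKM in cKO, without overlap (log2 fold change 0.70, SE 0.60, adjusted p = 0.522).

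The 4 H/ACA box proteins form 1 core particle, and in WT 3 of them rose and 1 fell. Among all genes, 36.6% were called higher and 14.9% lower in WT. Dkc1, the pseudouridine synthase, was at 144 and 138 FPKM in WT zygotes, 118 and 112 in cKO zygotes, 104 and 92.4 in WT 2-cell embryos, and 95.6 and 111 in cKO 2-cell embryos. It fell in WT to 0.698 of the zygote mean (adjusted p = 0.045) and was not called in cKO. Nhp2, a core partner of Dkc1, was at 18.7 and 14.9 FPKM in WT zygotes, 27.7 and 19.7 in cKO zygotes, 507 and 389.9 in WT 2-cell embryos, and 701 and 1286 in cKO 2-cell embryos. It rose 26.6-fold in WT (adjusted p = 0.000213) and 41.9-fold in cKO (adjusted p = 0.00142). Its 2-cell libraries did not overlap between genotypes, but the difference was not past the threshold (log2 fold change 1.09, SE 0.68, adjusted p = 0.372). Nop10, the smallest of the core proteins, rose 6.36-fold in WT and 12.0-fold in cKO, where its 2-cell libraries were at 507 and 1886 FPKM. Gar1 was at 5.91 and 6.17 FPKM in WT zygotes, 6.24 and 3.69 in cKO zygotes, 45.7 and 37.7 in WT 2-cell embryos, and 19.8 and 22.9 in cKO 2-cell embryos. It was the only module gene with both cKO 2-cell libraries below both WT ones, at 0.513 of the WT mean (log2 fold change -0.93, SE 0.74, adjusted p = 0.492). Gar1 rose in WT (adjusted p = 0.00324) and missed the threshold in cKO (adjusted p = 0.0564).

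Among the 20 small subunit factors, 13 rose and 0 fell in WT, 12 rose and 0 fell in cKO, and 0 passed the test between genotypes at either stage. Among all genes, 36.6% rose and 14.9% fell in WT, and 20.7% and 18.2% in cKO. Both cKO 2-cell libraries were above both WT ones for 9 of the 20 and below for 0, where the shares of all genes were 14% and 43.4%. Imp3 and Imp4 both bind the U3 small nucleolar RNA. Imp3 was at 94.0 and 79.5 FPKM in WT zygotes, 85.3 and 74.2 in cKO zygotes, 276 and 277 in WT 2-cell embryos, and 563 and 433 in cKO 2-cell embryos. It rose in both genotypes, 3.19-fold and 6.24-fold. Imp4 was at 71.1 and 44.4 FPKM in WT zygotes, 58.4 and 45.3 in cKO zygotes, 75.6 and 101 in WT 2-cell embryos, and 156 and 45.9 in cKO 2-cell embryos. Its means were 1.53 and 1.95 times those of the zygotes in WT and cKO, and it passed no test. Nol11, needed for transcription and early cutting of the precursor, was at the floor in all 4 zygote libraries and at 69.7 and 78.7 FPKM in WT and 120.5 and 66.3 FPKM in cKO 2-cell embryos, at least 74.2-fold and 93.4-fold above the zygotes.

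Rrp9, a protein of the U3 particle, was at 3.98 and 2.197 FPKM in WT zygotes, 3.52 and 2.75 in cKO zygotes, 89.1 and 139 in WT 2-cell embryos, and 127 and 36.7 in cKO 2-cell embryos. It rose 36.9-fold in WT (adjusted p = 0.000383) and 26.1-fold in cKO (adjusted p = 0.00612). Utp14b is a copy of Utp14a that lies within the Acsl3 locus and is known for its role in male germ cells. Its level was 1.83 and 1.58 FPKM in WT zygotes, 1.00 and 1.76 in cKO zygotes, 60.5 and 63.3 in WT 2-cell embryos, and 66.6 and 31.0 in cKO 2-cell embryos, above that of Utp14a in each 2-cell library. Utp14b shares exon positions with Acsl3. Rrp7a was at 11.2 and 8.35 FPKM in WT zygotes, 8.04 and 6.72 in cKO zygotes, 47.3 and 60.1 in WT 2-cell embryos, and 72.5 and 31.7 in cKO 2-cell embryos. Rrp12 was at the floor in all 4 zygote libraries, at 11.9 and 10.7 FPKM in WT 2-cell embryos and at 15.8 and 5.41 FPKM in cKO 2-cell embryos. Rrp7a and Rrp12 rose in both genotypes, and their 2-cell libraries overlapped between genotypes.

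Utp11l, a subunit of the small subunit processome, was at 12.6 and 18.8 FPKM in WT zygotes, 26.4 and 23.2 in cKO zygotes, 131 and 134 in WT 2-cell embryos, and 306 and 352 in cKO 2-cell embryos. The cKO libraries were above the WT libraries at both stages, and neither difference passed the threshold (adjusted p = 0.25 in zygotes and 0.213 in 2-cell embryos). Utp3, whose promoter holds 2 ETS motifs, was at 17.3 and 20.0 FPKM in WT zygotes, 17.8 and 17.4 in cKO zygotes, 59.6 and 54.4 in WT 2-cell embryos, and 155 and 113 in cKO 2-cell embryos. Its cKO mean was 2.35 times the WT mean (log2 fold change 1.20, SE 0.34, adjusted p = 0.0886). Utp18 was at 55.2 and 87.0 FPKM in WT zygotes, 61.8 and 77.7 in cKO zygotes, 41.3 and 38.8 in WT 2-cell embryos, and 98.5 and 75.1 in cKO 2-cell embryos, with no overlap between genotypes at the second stage (adjusted p = 0.391). Nol10 was at 43.9 and 48.5 FPKM in WT zygotes, 42.1 and 41.0 in cKO zygotes, 24.7 and 25.0 in WT 2-cell embryos, and 43.5 and 9.81 in cKO 2-cell embryos. Nol10 and Utp18 were the small subunit factors with WT 2-cell libraries below the WT zygotes, and neither passed the test. The remaining small subunit factors were Noc4l, Nol6, Nop14, Rrp36, Utp14a, Utp15, Utp20, Utp23 and Utp6. Their ratio of cKO to WT means in 2-cell embryos ranged from 0.824 for Nop14 to 2.21 for Nol6, whose cKO libraries were at 13.2 and 2.53 FPKM.

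Among the 16 large subunit factors, 10 rose and 0 fell in WT, 9 rose and 0 fell in cKO, and 1, Gnl3, passed the test between genotypes in 2-cell embryos. The shares of all genes were 36.6% and 14.9% in WT, 20.7% and 18.2% in cKO, and 0.834% for a higher level in cKO 2-cell embryos. Gnl3, or nucleostemin, is a GTPase of the nucleolus that is abundant in stem cells and takes part in large subunit processing. It lies on chr14:31825620-31832275 of mm9, minus strand, and its introns hold 3 small nucleolar RNA genes. Gnl3 was at 45.3 and 62.5 FPKM in WT zygotes, 69.8 and 66.8 in cKO zygotes, 76.3 and 76.3 in WT 2-cell embryos, and 416 and 369 in cKO 2-cell embryos. The cKO 2-cell libraries stood far above all the others, which lay within a narrow band. The cKO 2-cell mean was 392.6 ± 33.3 FPKM (SD, n = 2), or 5.14 times the WT mean (log2 fold change 2.35, SE 0.47, adjusted p = 0.0421). Over 18 alternative fits the adjusted p ranged from 0.00164 to 0.155, and 8 of them kept the call. It was kept without either WT zygote library and lost without any 1 of the other 6 libraries. Exons of Gnl3 overlap those of Glt8d1.

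Rrp15, a factor of large subunit assembly on chr1:188544857-188573237 of mm9, minus strand, was at 17.6 and 18.6 FPKM in WT zygotes, 15.2 and 17.1 in cKO zygotes, 48.1 and 61.9 in WT 2-cell embryos, and 242 and 146 in cKO 2-cell embryos. It rose in both genotypes, 3.04-fold in WT (adjusted p = 0.00189) and 12.0-fold in cKO (adjusted p = 0.000985). The cKO 2-cell mean was 3.53 times that of WT, just short of the threshold (log2 fold change 1.77, SE 0.39, adjusted p = 0.0517, called in 6 of 18 alternatives). Gnl2, a GTPase that acts on large subunit precursors in the nucleus, was at 30.9 and 34.5 FPKM in WT zygotes, 36.5 and 36.0 in cKO zygotes, 20.4 and 28.4 in WT 2-cell embryos, and 74.5 and 62.8 in cKO 2-cell embryos. Its 2-cell libraries were below the zygotes in WT and above them in cKO. The cKO 2-cell mean was 2.81 times that of WT (log2 fold change 1.47, SE 0.35, adjusted p = 0.0611).

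**Figure D5:**
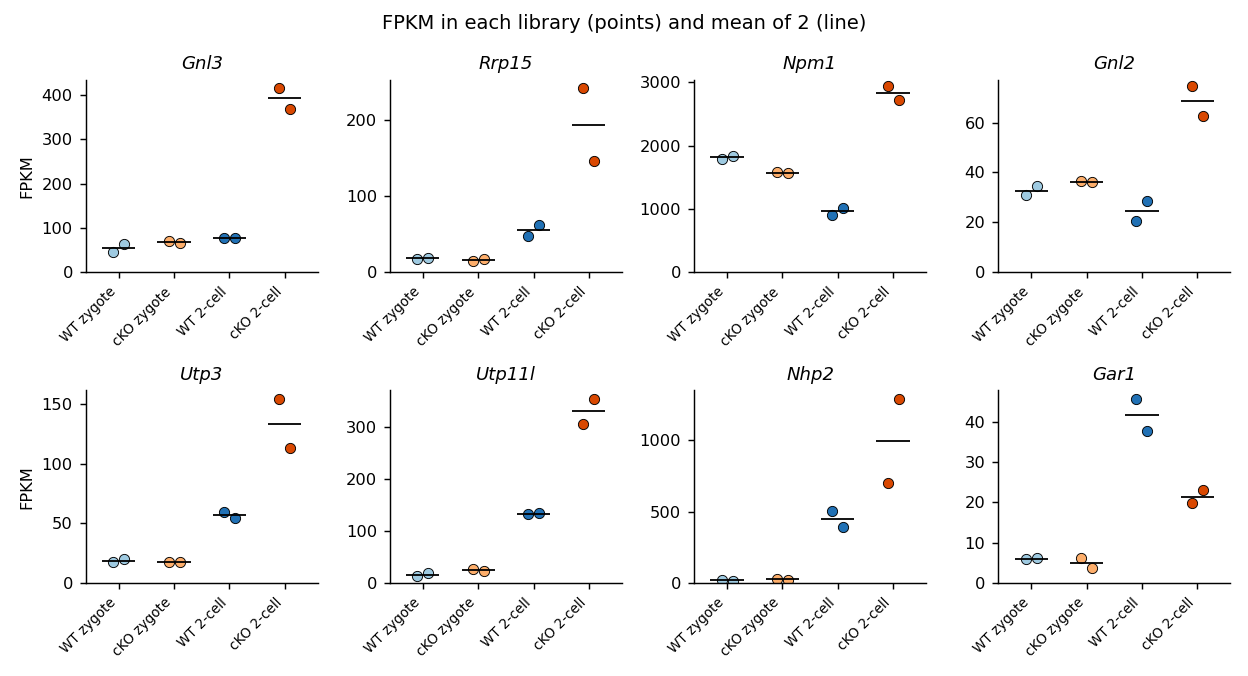
FPKM of 8 module genes in each library (points, 2 per group) with the group mean (line), on linear axes that start at 0. In Gnl3, Rrp15, Npm1, Gnl2, Utp3, Utp11l and Nhp2 both cKO 2-cell libraries lie above both WT 2-cell libraries, and in Gar1 they lie below.

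Bop1, Pes1 and Wdr12 form the PeBoW complex, which is required for the large subunit RNAs. Bop1 was at 1.17 and 1.00 FPKM in WT zygotes, at the floor in both cKO zygote libraries, at 32.1 and 22.7 FPKM in WT 2-cell embryos, and at 34.2 and 28.5 FPKM in cKO 2-cell embryos. Pes1 was at 22.1 and 17.5 FPKM in WT zygotes, 22.1 and 19.1 in cKO zygotes, 37.4 and 25.3 in WT 2-cell embryos, and 38.1 and 34.6 in cKO 2-cell embryos. Wdr12 was at 9.96 and 9.17 FPKM in WT zygotes, 12.5 and 10.46 in cKO zygotes, 26.04 and 21.5 in WT 2-cell embryos, and 39.3 and 48.1 in cKO 2-cell embryos. The 3 subunits started from different levels in the zygote and lay closer in the 2-cell embryo. Bop1 and Wdr12 rose in both genotypes, and Pes1 was called in neither (adjusted p = 0.118 in WT and 0.19 in cKO).

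Nop2, an RNA methyltransferase, and Nop16 had no signal above the floor in zygotes. Nop2 was at 80.4 and 62.6 FPKM in WT and 77.4 and 72.0 FPKM in cKO 2-cell embryos, at least 71.5-fold and 74.7-fold above the zygotes. Nop16 was at 80.5 and 113 FPKM in WT and 163 and 53.1 FPKM in cKO 2-cell embryos, at least 96.9-fold and 108-fold above. These were, with Nol11, the largest ratios of the module in both genotypes. All are listed only through their 2-cell values, so none could have come out lower. Noc3l, a factor of large subunit maturation, was at 5.49 and 7.64 FPKM in WT zygotes, 9.55 and 8.93 in cKO zygotes, 32.6 and 26.6 in WT 2-cell embryos, and 32.7 and 10.7 in cKO 2-cell embryos. Nol12 in 2-cell embryos was at 20.4 and 27.4 FPKM in WT and at 48.1 and 17.8 FPKM in cKO. Both genes were called higher in WT only. Rrp1b was at 15.3 and 15.2 FPKM in WT zygotes, 20.0 and 16.4 in cKO zygotes, 6.01 and 7.84 in WT 2-cell embryos, and 15.5 and 3.57 in cKO 2-cell embryos. It had the lowest ratio of the module from zygote to 2-cell embryo in both genotypes, 0.454 in WT (adjusted p = 0.0528) and 0.524 in cKO (adjusted p = 0.148). The remaining large subunit factors, Gnl3l, Nol8, Nol9, Rrp1 and Rrp8, had ratios of cKO to WT 2-cell means from 1.19 for Rrp8 to 1.39 for Nol8.

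Npm1, nucleophosmin, a chaperone of histones and ribosomal proteins, had the highest FPKM of the module in all 8 libraries. It was at 1790 and 1837 FPKM in WT zygotes, 1576 and 1571 in cKO zygotes, 909 and 1012 in WT 2-cell embryos, and 2939 and 2714 in cKO 2-cell embryos. Its mean fell in WT to 0.53 of the zygote level (log2 fold change -0.92, SE 0.21, adjusted p = 0.0119) and was 1.8 times the zygote level in cKO (adjusted p = 0.0786). The cKO 2-cell mean was 2826 ± 159 FPKM against 961 ± 72.9 FPKM in WT (SD, n = 2 each), a ratio of 2.94 that missed the threshold (log2 fold change 1.56, SE 0.36, adjusted p = 0.0583). Without Npm1, the summed FPKM of the module was 1106 to 1197 in zygotes, 3855 and 3480 in WT 2-cell embryos, and 6044 and 6367 in cKO 2-cell embryos. Ncl, nucleolin, which binds the precursor RNA, was at 48.9 and 60.5 FPKM in WT zygotes, 75.2 and 69.2 in cKO zygotes, 29.9 and 44.6 in WT 2-cell embryos, and 114 and 21.0 in cKO 2-cell embryos. The cKO 2-cell libraries enclosed both WT values, and Ncl passed no test.

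The naming rule also took in Nol7, Nol4 and Gnl1. Nol7, a nucleolar protein, was at 8.57 and 9.16 FPKM in WT zygotes, 13.7 and 11.0 in cKO zygotes, 28.0 and 37.8 in WT 2-cell embryos, and 92.1 and 76.3 in cKO 2-cell embryos. It rose in both genotypes, and the cKO libraries lay above the WT libraries at both stages (adjusted p = 0.339 and 0.137). Nol4, best known from brain and testis, was at 1.75 and 2.105 FPKM in WT zygotes, 1.29 and 1.56 in cKO zygotes, and at the floor in all 4 of the 2-cell libraries. Nol4 was called lower in WT (adjusted p = 0.0202) at a level close to the floor. It is listed only through its zygote values and could not have come out higher, so its fall is no independent result. Gnl1, a GTPase related to Gnl2 and Gnl3, stayed between the floor and 4.30 FPKM in all libraries.

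Whether the difference between genotypes changed with stage was tested by the interaction term of the same model, in which 0 module genes passed, where 0.605% of all genes were called positive and 4.55% negative. At an unadjusted p under 0.05 there were 5 positive and 0 negative genes, where 4.14% and 20% of all genes were. Without sample weights limma called 5, and the share of all genes in that fit was not counted. The largest were Gnl3 (1.99, SE 0.49, adjusted p = 0.0735), Rrp15 (1.92, SE 0.40, adjusted p = 0.053) and Npm1 (1.76, SE 0.38, adjusted p = 0.0542), in log2 units. Gnl2 and Utp3 followed with 1.32 and 1.28, both with adjusted p = 0.0931. The comparisons of stages and of genotypes use the same libraries and are not independent of each other.

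Small nucleolar RNA genes lay inside 5 of the 50 genes (10%), namely Dkc1, Gnl3, Ncl, Nop56 and Nop58, and inside 234 of 13338 listed protein-coding genes (1.75%), by the mm9 annotation. In WT, Nop56 and Nop58 rose, Dkc1 fell, and Gnl3 and Ncl passed no test.

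Other genes of ribosome production were taken as fixed lists that exclude the module, and all of their 118 genes found in the table were tested. In WT, 72 rose and 11 fell from zygote to 2-cell embryo, and in cKO 71 rose and 4 fell, against 36.6% and 14.9% of all genes in WT and 20.7% and 18.2% in cKO. Taf1c, Polr1b, Dhx37, Ddx31, Nle1, Mdn1, Ddx54, Rrs1 and Urb2 were at 1 FPKM in all 4 zygote libraries. These genes are listed only through their 2-cell values and could not have come out lower, and they are part of the counts. Between genotypes 0 were called in zygotes, where 0.167% of all genes were called higher and 0.0278% lower. In zygotes 14 had an unadjusted p under 0.05 with a higher and 4 with a lower cKO level (7.34% and 3.53% of all genes). In 2-cell embryos 1 was called higher and 0 lower, where 0.834% and 5.93% of all genes were called. The gene called was the helicase Ddx10 (20.3 and 17.4 FPKM in WT, 73.3 and 65.9 in cKO, log2 fold change 1.83, SE 0.34, adjusted p = 0.0352). At an unadjusted p under 0.05 there were 25 higher and 1 lower (4.79% and 20.6% of all genes). Both cKO 2-cell libraries were above both WT ones for 61 of the 118 and below for 8, where the shares of all genes were 14% and 43.4%.

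By list, to be read against the same shares, this was 7 and 0 of 12 polymerase I subunits and factors, 7 and 0 of 11 genes of small nucleolar RNP assembly, 21 and 2 of 33 small subunit factors, 20 and 4 of 47 large subunit factors, and 6 and 2 of 15 genes of the exosome and its partners, which trim the precursors. Znrd1, a polymerase I subunit, had the largest ratio, 9.58, with 89.8 and 37.2 FPKM in WT and 324 and 892 FPKM in cKO (adjusted p = 0.133). Znhit3, of the C/D box assembly machinery, was at 652 and 408 FPKM in WT and at 1502 and 3263 FPKM in cKO (adjusted p = 0.0573). Sdad1 and Rpf2, both of the large subunit, had cKO means 3.89 and 3.41 times those of WT (adjusted p = 0.117 and 0.0537). Mphosph6, a cofactor of the exosome, went the other way, with 1444 and 1482 FPKM in WT and 393 and 556 FPKM in cKO (ratio 0.324, adjusted p = 0.135). It was abundant in zygotes, at 5381 to 7663 FPKM.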

How the data were processed

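RNA-seq was read from 8 Smart-seq2 libraries, 2 per group, each from 10 pooled embryos. Per the study's methods and the labels, the authors aligned trimmed reads to mm9 with TopHat2 2.1.1 and quantified genes with Cufflinks 2.2.1. The deposited values are FPKM, which the authors call normalized. The gene annotation and the kind of further normalization are not given in the sources used here. Per the study's methods, genes under 1 in all libraries had been left out and remaining values under 1 had been set to 1. The floor was checked on the 14392 listed genes, whose lowest value was 1, and the removal of genes was not checked. FPKM keeps no counts, so the depth is unknown, and precision rests on 2 libraries per group. ChIP-seq of H2AK119ub1 in the same series was not analysed here.

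From these values, genes were fitted as log2(FPKM + 1) with limma 3.58.1 (R 4.3.3), with a pseudocount of 1, a mean-variance trend and 1 weight per group, with all 4 groups in 1 model. Fold changes of low genes are understated on this scale. P-values were adjusted by Benjamini-Hochberg over all listed genes at 0.05. The rule of the study, a mean more than 3-fold apart, was used as a call with no test. The scripts were run on simulated data with noise independent between genes, which does not cover shifts that the genes of a library share. Alternatives covered the pseudocount, the weights, scaling, a filter, the replicate block, the fold threshold and each library left out. The crossed block and the recounts of separated libraries and of means were chosen after seeing the data.

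The members and lists were chosen with earlier results of these data known. Values in every library are given for the 13 genes named by full symbol, for genes past 3-fold or limma between genotypes, and for the 5 with the largest fold in each direction in each comparison. Values of other genes (Nop56, Nop58, Nop10, Utp3, Rrp12, Gnl1 and Nol6) were added after they were seen, as were the promoters shown. Gene positions are from GENCODE vM1 on mm9, and promoters are from RefSeq on GRCm38.p6, matched by symbol or Ensembl identifier.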

Additional observations from a re-analysis of the deposited data

Results flagged for a closer look

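Npm1 and Gnl2 stood out because their 2-cell libraries moved in opposite directions from the zygotes in the 2 genotypes. Both WT 2-cell libraries were below both WT zygote libraries, and both cKO 2-cell libraries were above both cKO zygote libraries. For Npm1 the difference between the steps was 1.76 on the log2 scale (SE 0.38), with an adjusted p of 0.0542 for the interaction in limma, 0.0265 to 0.238 over the alternatives, of which 3 of 17 passed the threshold. For Gnl2 it was 1.32 (SE 0.36), with an adjusted p of 0.0931 for the interaction in limma, 0.0394 to 0.217 over the alternatives, of which 2 of 17 passed. Neither passed the threshold as fitted.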

How the results depend on the processing

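Genes called higher in cKO 2-cell embryos numbered 1 as fitted (Gnl3), 10 without sample weights, 2 with no pseudocount or a pseudocount of 5, 3 with a mean FPKM of at least 5, and 0 with sum scaling, quantile normalization or only the 4 libraries compared. With median-ratio scaling the gene called was Rrp15, and without the second WT 2-cell library it was Gnl2. Without sample weights 1 gene was called lower, Gar1. The shares of all genes called were not counted for these alternative fits, so the counts show only how the calls in the module moved. Interaction calls numbered 0 as fitted, 5 without sample weights, 3 with the filter, and 1 with no pseudocount, a pseudocount of 5 or median-ratio scaling. Genes called lower from zygote to 2-cell embryo in WT numbered 3 as fitted, 5 with median-ratio scaling or the filter and 8 with quantile normalization, and in cKO 0 as fitted and 1 without sample weights. The median log2 ratio in WT moved from 1.71 to 1.35 with median-ratio scaling, under which Dkc1 had a log2 fold change of 0.01 in cKO in place of -0.16. Genes over 3-fold higher in cKO 2-cell embryos numbered 2, 1 when every library had to pass, 8 with median-ratio scaling and 11 at a threshold of 2, and at that threshold 1 gene was lower in WT 2-cell embryos than in zygotes. With median-ratio scaling 31 genes had both cKO 2-cell libraries above WT and 4 a lower mean, and with sum scaling 12 were above, 2 below and 15 lower in the mean.

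Zygote and 2-cell libraries share replicate numbers between genotypes, but nothing in the labels pairs them, and the deviations of same-numbered libraries correlated at 0.56 in zygotes and -0.366 in 2-cell embryos over 7142 genes. With a replicate block, 2 genes were called higher in cKO 2-cell embryos, 1 in the interaction and 5 lower in WT from zygote to 2-cell embryo. A crossed pairing of the 2-cell numbers gave 2 and 1 for the first pair of these counts.

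Leaving out 1 library at a time gave 22 to 33 genes called higher and 0 to 4 lower in WT, 15 (without the first cKO 2-cell library) to 28 higher and 0 to 1 lower in cKO, 0 to 1 higher between genotypes in 2-cell embryos, and 0 to 1 in the interaction. The 3-fold rule gave 1 to 6 higher and 0 to 2 lower genes between 2-cell genotypes, and 0 to 3 lower genes in cKO from zygote to 2-cell embryo. The median log2 ratio between 2-cell genotypes ranged from 0.03 to 0.8. Genes with cKO 2-cell libraries above WT numbered 19 to 43, those below 2 to 22, those with a higher mean 26 to 46 and those with a lower mean 3 to 23. The ends at 26 and 23 were without the first cKO 2-cell library. In these, the lone library of a group was taken to vary as the weights of the full fit have it.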
